A study of Mus musculus with 6 samples.

Results

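The genes described are 10 mouse receptors of natural killer (NK) cells, namely Ncr1, Klrb1c, Klrd1, Klrc1, Klrc2, Klre1, Klrg1, Klra4, Klra7 and Klra8. They were found by symbol among the 34745 genes of the deposited expression table, and each symbol matched 1 gene ID. RNA sequencing had been run on 6 tumours grown from Hep1-6, a mouse hepatoma line, after the cells were placed under the skin of C57BL/6J mice. The 3 HCD tumours came from mice on a high cholesterol diet and the 3 ND tumours from mice on a normal diet. Both groups share the cell line, the host strain and the site. The labels give no age, sex or duration of diet, and do not say that each tumour came from a different mouse. A p-value here therefore speaks only of the spread among these samples, which may be technical in part. C57BL/6J is a strain with its own NK and T cells, whereas the Hep1-6 line is of liver tumour origin.

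NK cells are innate lymphocytes that kill tumour cells without a rearranged antigen receptor. They weigh signals from activating receptors, which pair with adaptor proteins such as DAP12, against signals from inhibitory receptors, which carry an immunoreceptor tyrosine-based inhibitory motif (ITIM) in their own cytoplasmic tail and mostly bind MHC class I molecules. In mice these receptors are mainly lectin-like proteins of the Ly49 (Klra), NKG2 (Klrc), CD94 (Klrd1) and NKR-P1 (Klrb1) families. Several of them, among them Klrd1, Klrc1 and Klrg1, are also made by activated CD8 T cells, so in bulk tissue they do not mark NK cells alone.

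By annotation (GENCODE M21, GRCm38), 9 of the 10 genes lie on chromosome 6, most of them in the NK gene complex, and Ncr1 lies on chromosome 7 (4337724 to 4345164, + strand). Klrd1 (129591782 to 129598775, + strand), Klrc2 (129647496 to 129660689, - strand) and Klrc1 (129666015 to 129678973, - strand) are neighbours. The Ly49 genes Klra4 (130043731 to 130067271), Klra8 (130115226 to 130129898) and Klra7 (130218605 to 130233322) follow on the - strand. Of the others, Klre1 starts at 129577905, Klrb1c at 128778485 and Klrg1 at 122270596. All 10 are protein-coding.

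The first 60 coding bases are shown for Klrc1, Klrc2, Klrg1, Klra7, Klra4 and Klra8. They show whether the ITIM is present there, which alone does not tell whether a receptor is inhibitory or activating. In Klrc1, Klrg1 and Klra7 the capitals mark the 6 codons of the ITIM; in Klra4 and Klra8 they mark the codons at the same coding positions as in Klra7, and Klrc2 had no match within its first 30 codons. The motif searched on the translation was serine, isoleucine, valine or leucine, any residue, tyrosine, any pair of residues, then isoleucine, leucine or valine. It occurred within the first 30 codons of 3 of the 10 receptors, and of 695 of 21582 protein-coding genes (3.22%), so the letters alone do not make an inhibitory receptor. Sequences are from GENCODE M21 transcripts (GRCm38, all on the - strand of chromosome 6), 5′ to 3′ from the start codon.
Klrc1: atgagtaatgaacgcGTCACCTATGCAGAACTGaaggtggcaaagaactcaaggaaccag
Klrc2: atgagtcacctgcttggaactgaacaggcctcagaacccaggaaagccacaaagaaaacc
Klrg1: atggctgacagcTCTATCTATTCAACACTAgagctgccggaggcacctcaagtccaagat
Klra7: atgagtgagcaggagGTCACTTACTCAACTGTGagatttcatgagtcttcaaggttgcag
Klra4: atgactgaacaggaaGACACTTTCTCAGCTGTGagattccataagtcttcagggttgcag
Klra8: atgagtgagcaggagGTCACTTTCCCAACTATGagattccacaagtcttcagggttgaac
The capitals lie at chr6:129678878-129678895 in Klrc1, chr6:122282782-122282799 in Klrg1, chr6:130231585-130231602 in Klra7, chr6:130065270-130065287 in Klra4 and chr6:130128128-130128145 in Klra8. Counted from the first coding base, with the base of Klra7 first, Klra4 differs from Klra7 there by T17A, A23T and A28G, and Klra8 by A23T, T25C and G31A. The change shared by both activating genes, A23T, falls in the codon of the ITIM's tyrosine (bases 22 to 24).

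The same likeness limits how well reads can be assigned. Over the aligned coding bases Klra4 and Klra7 are 84.3% identical, Klra8 and Klra4 78.6%, and Klrc1 and Klrc2 83.1%. The share of 50-base stretches of a gene's transcripts that also occur in another gene's transcripts was 38.6% for Klrc1, 33.1% for Klra8, 16.98% for Klrb1c, 16.3% for Klrc2, 12.3% for Klra7, 4.68% for Klra4 and 0.31% for Klre1. For 100-base stretches it was 14.6% for Klrc1, 14.4% for Klra8, 10.8% for Klrb1c, 7.09% for Klrc2, 1.83% for Klra7 and 0% for Klra4 and Klre1. Klrd1, Klrg1 and Ncr1 shared none of either length. Partners of Klrc1 and Klrc2 were each other and Klrc3, those of Klra8 included Klra9, Klra10 and Klra3, and Klrb1c shared bases with Klrb1a, Klrb1b and the predicted gene Gm44511, which overlaps its exons on the same strand. Without a stated read length, which share applies is unknown, and values of Klrc1, Klrc2, Klra7, Klra8, Klrb1c and, for short reads, Klra4 are uncertain.

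All 10 receptors were detected in all 6 tumours, at low levels. Values are FPKM, fragments counted on a gene and scaled to gene length and library size. Means over the 6 libraries were 2.29 FPKM for Klrc1, 2.03 for Klrd1, 1.18 for Klra4, 0.918 for Klrg1, 0.552 for Klra8, 0.461 for Ncr1, 0.393 for Klra7, 0.360 for Klre1, 0.251 for Klrc2 and 0.146 for Klrb1c. Between neighbours, only the lowest step of that order held in each library: Klrc2 was above Klrb1c in 6 of 6, whereas Klrc1 was above Klrd1 in 4 of 6 and Klra4 above Klrg1 in 2 of 6. The reads behind these values can be recovered, since within a library FPKM moves in steps of 1 read. Summed over the 6 libraries they came to 778 reads for Klrc1 and 728 for Klrd1, and to between 83 (Klra8) and 242 (Klrc2) for the rest. Gene models differ in length, which moves the order: Klrc2 had more reads than Klra4 (189) or Klrg1 (172), but its model as implied by the steps is 7381 bases long, against 1245 and 1414.

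Library sizes implied by the same steps were 20351637 to 20918325 fragments in HCD and 20622727 to 26228073 in ND. Between 11505 and 12050 genes reached 1 FPKM in an HCD library, and between 11495 and 11894 in an ND library. Of the 4 hepatoma markers, Alb was at 1176 to 1672 FPKM in HCD and 1272 to 1553 in ND, and Afp at 110 to 197 FPKM in HCD and 109 to 165 in ND. Apoa1 was at 32.4 to 47.3 FPKM in HCD and 31.0 to 64.6 in ND, and Ttr at 6.2 to 12.9 in HCD and 5.6 to 6.8 in ND. All 4 summed to 1685, 1324 and 1921 FPKM in HCD 1 to HCD 3, against 1789, 1488 and 1418 in ND 1 to ND 3, with HCD 2 lowest. ND 1 had the lowest and HCD 2 the highest sums of T cell and macrophage markers. B cell markers were also lowest in ND 1 (0.572 FPKM), but highest in HCD 1 (5.15, against 3.52 in HCD 2). T cell markers (10 of 10 detected, none at 0) summed to 58.1, 78.8 and 32.7 FPKM in HCD 1 to HCD 3, against 12.5, 39.8 and 46.4 in ND 1 to ND 3. Macrophage markers (5 of 5) summed to 532, 883 and 358 FPKM in HCD 1 to HCD 3, against 216, 530 and 428 in ND 1 to ND 3. Skeletal muscle markers (4 of 4) summed to 682 FPKM in HCD 1 and 568 in ND 2, and to at most 64.4 in the other libraries. The part of these tissues in the receptor values was not tested.

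**Figure D1:**
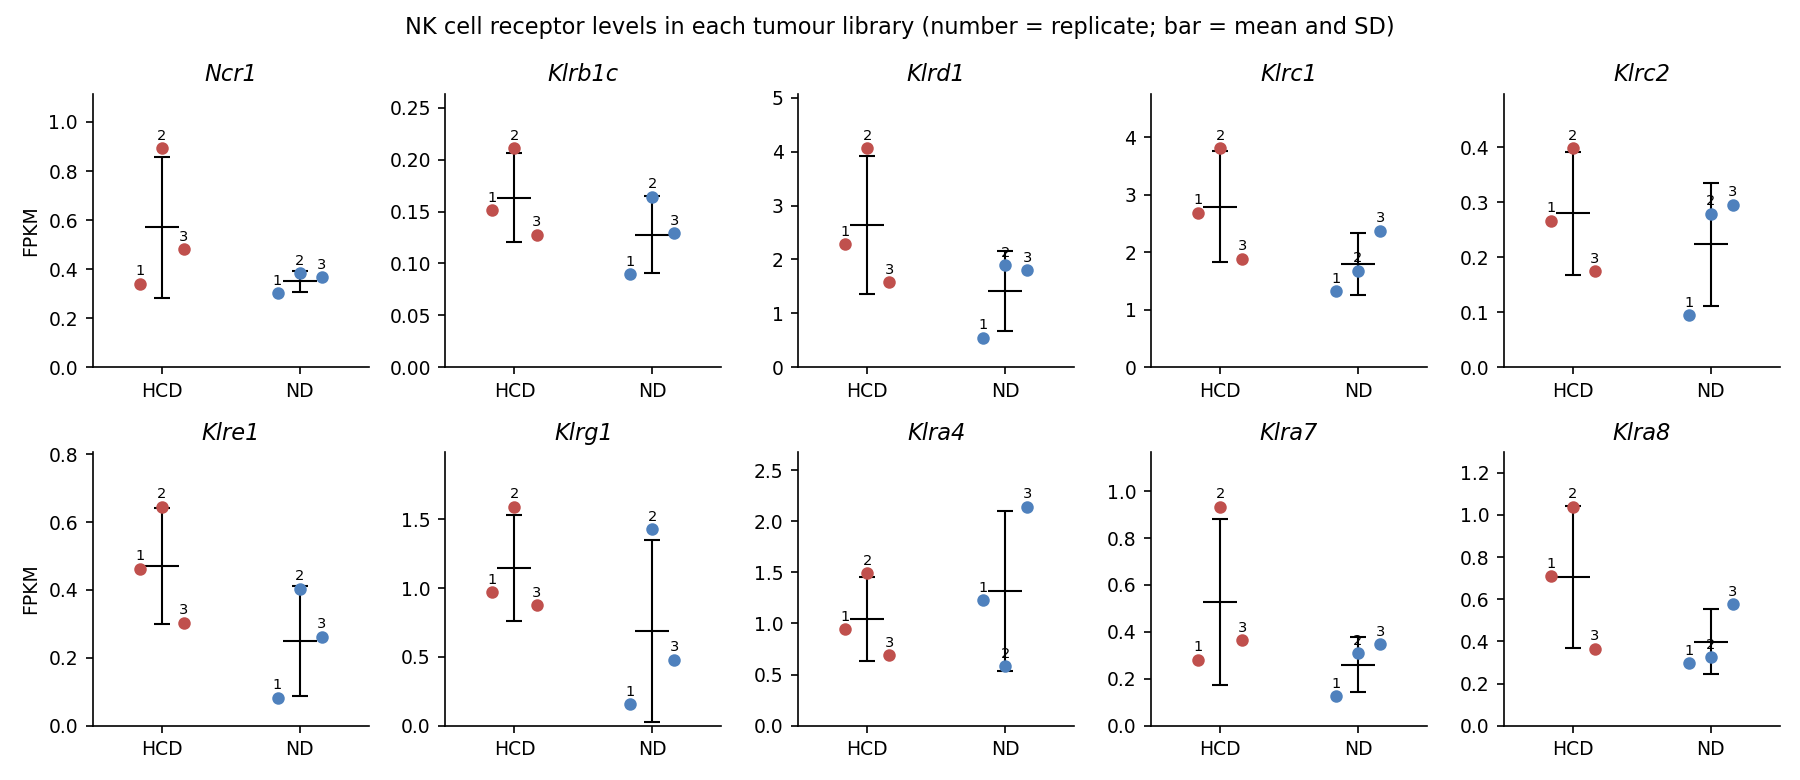
FPKM of each of the 10 receptors (y axis, linear, own scale in each panel) in the 3 HCD and 3 ND libraries; numbers give the replicate, and bars the mean and SD (n = 3). The groups overlap in all 10 panels; HCD 2 is the highest library in 9 panels and ND 1 the lowest in 9, Klra4 being the exception.

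The comparison of HCD with ND asks whether receptor transcripts in the tumour differ with dietary cholesterol. In HCD the mean was higher for 9 genes and lower for Klra4, but no receptor differed beyond the spread between libraries. In bulk tissue, fewer cells of a type and less RNA per cell cannot be told apart. Of the 10 genes, 5 had a mean of at least 0.5 FPKM and entered the test (Klrd1, Klrc1, Klrg1, Klra4 and Klra8). Limma on log2(FPKM + 1) called 0 of these 5, against 0 of 13417 genes tested (0%), at an adjusted p of 0.05. At an unadjusted p under 0.05 it had 0 of the 5, against 789 tested genes (5.88%). The other 5 genes were read from a fit with no filter on low values, which called 0 of 10 receptors and 0 of 24803 genes; 0 receptors and 5.14% of those genes had an unadjusted p under 0.05. With limma-voom, run on the recovered reads, the calls were 0 of 10 receptors and 0 of 15915 genes, and 0 receptors and 4.91% of genes had an unadjusted p under 0.05. The lowest unadjusted p of a receptor was 0.0987 in the filtered fit and 0.0951 with voom, both for Klrc1.

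In the fit with no filter the median log2 difference was 0.25 over the 10 receptors and 0.00 over all genes, and 9 of 10 receptors lay higher in HCD, against 53.7% of genes. The scale of log2(FPKM + 1) understates differences of genes this low. On the recovered reads the medians were 0.69 over the receptors and 0.02 over all genes, with log2 differences of 1.14 for Klrg1, 1.07 for Klre1, 0.97 for Klrd1 and 0.92 for Klra7 at the upper end and -0.16 for Klra4 at the lower. All 10 genes had overlapping groups. All HCD libraries lay above all ND libraries in 5.98% of tested genes (4.66% of genes with a value above 0), and below them in 6.13% of tested genes.

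**Figure D2:**
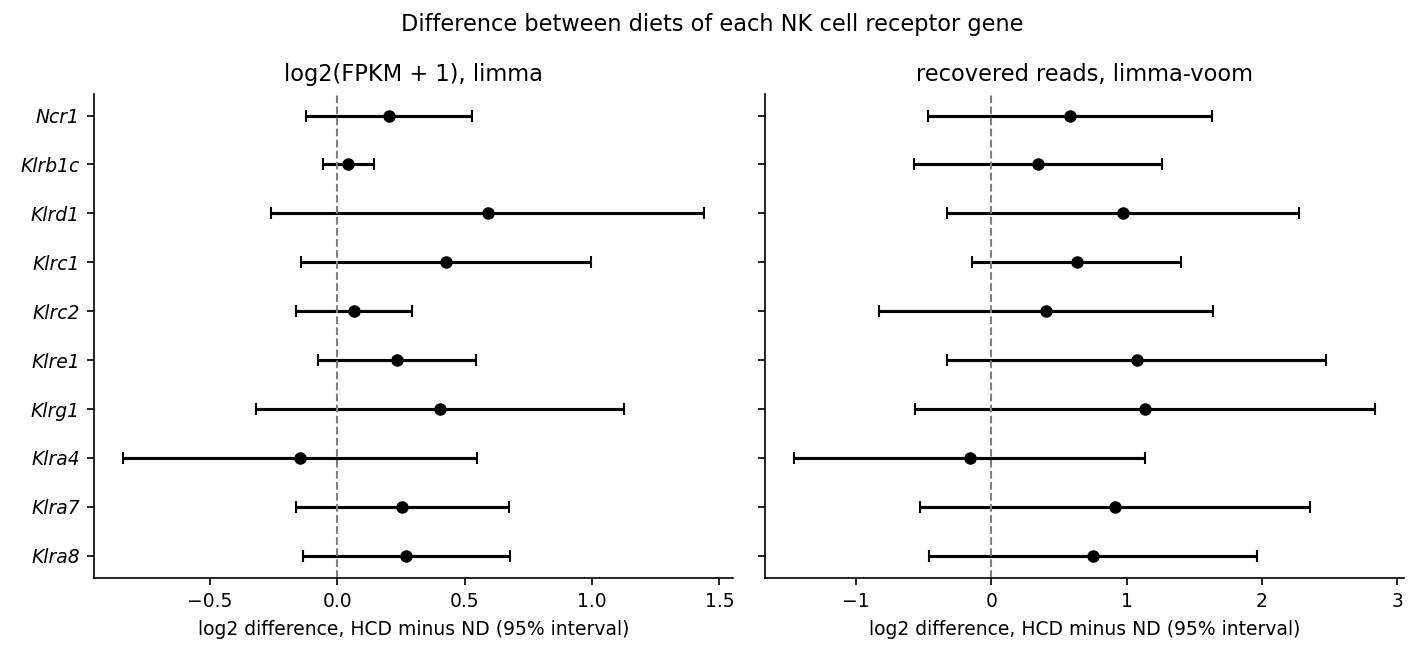
Log2 difference of each receptor, HCD minus ND, as a point with its 95% interval, on log2(FPKM + 1) by limma with no filter (left) and on recovered reads by limma-voom (right). Every interval includes 0; the voom intervals reach from -1.46 (Klra4) to 2.83 (Klrg1).

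Ncr1 encodes NKp46, an activating receptor that defines NK cells and related innate lymphoid cells. It was at 0.340, 0.893 and 0.481 FPKM in HCD 1 to HCD 3, against 0.303, 0.384 and 0.366 FPKM in ND 1 to ND 3. The value of HCD 2 rests on 29 reads (95% Poisson interval 19.4 to 41.7), that of the other 5 libraries on 11 to 16 reads. The ND libraries lay close together, with HCD 2 and HCD 3 above them and HCD 1 inside their range. The log2 difference was 0.20 on log2(FPKM + 1) with no filter (95% interval -0.12 to 0.53, adjusted p = 0.865). It was 0.06 without HCD 2 and 0.31 without HCD 1. Klrb1c encodes NK1.1, the activating NKR-P1C receptor by which NK cells of this strain are usually sorted. It was at 0.151, 0.211 and 0.128 FPKM in HCD 1 to HCD 3, against 0.0898, 0.164 and 0.129 FPKM in ND 1 to ND 3, on 10 to 21 reads a library. HCD 1 and HCD 3 lay inside the ND range, and the gene had a log2 difference of 0.04 (95% interval -0.06 to 0.14, adjusted p = 0.865), and of 0.015 without HCD 2, 0.020 without ND 1, 0.068 without ND 2 and 0.067 without HCD 3. On the recovered reads the Klrb1c interval was wider, -0.57 to 1.26.

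Klrd1 encodes CD94, the chain that joins NKG2A or NKG2C to form a receptor for Qa-1, a nonclassical MHC class I molecule. It was at 2.28, 4.07 and 1.58 FPKM in HCD 1 to HCD 3, against 0.550, 1.89 and 1.80 FPKM in ND 1 to ND 3. HCD 3 lay below ND 2 and ND 3, and ND 1 was far below every other library, with 35 reads (95% Poisson interval 24.4 to 48.7) against 92 to 231 elsewhere. Klrd1 averaged 2.64 ± 1.28 FPKM in HCD and 1.41 ± 0.748 FPKM in ND (SD, n = 3 each). The log2 difference of 0.59 (SE 0.33, 95% interval -0.22 to 1.40, limma adjusted p = 0.794) was the largest of the set on this scale. It was 0.30 without ND 1 and 0.32 without HCD 2.

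Klrc1 encodes NKG2A, the inhibitory partner of CD94 whose ITIM codons are shown above. It was at 2.68, 3.81 and 1.89 FPKM in HCD 1 to HCD 3, against 1.33, 1.68 and 2.37 FPKM in ND 1 to ND 3. HCD 1 and HCD 2 lay above all ND libraries, and HCD 3 between ND 2 and ND 3. The log2 difference was 0.43 (SE 0.22, 95% interval -0.11 to 0.96, limma adjusted p = 0.794), and 0.24 without HCD 2. Klrc2 encodes NKG2C, the activating counterpart. It was at 0.266, 0.398 and 0.175 FPKM in HCD 1 to HCD 3, against 0.0948, 0.279 and 0.296 FPKM in ND 1 to ND 3. ND 2 and ND 3 lay above HCD 1 and HCD 3, and the log2 difference was 0.07 (95% interval -0.16 to 0.29, adjusted p = 0.894). It was -0.012 without ND 1 and 0.0001 without HCD 2.

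Klrc1 exceeded Klrc2 in all 6 libraries, by 10.1-, 9.57- and 10.8-fold in HCD 1 to HCD 3, against 14.0-, 6.01- and 8.03-fold in ND 1 to ND 3. These are ratios of FPKM and depend on the long Klrc2 model; by reads, Klrc1 had 144, 205 and 104 in HCD 1 to HCD 3 and 80, 116 and 129 in ND 1 to ND 3, and Klrc2 had 40, 60 and 27 in HCD 1 to HCD 3 and 16, 54 and 45 in ND 1 to ND 3. Inhibitory NKG2A transcripts thus outnumbered activating NKG2C reads in every tumour, whichever measure is used. The ratio of Klrc1 to Klrd1 was 1.18, 0.936 and 1.19 in HCD 1 to HCD 3, against 2.41, 0.887 and 1.32 in ND 1 to ND 3. ND 1 was the library in which the CD94 chain was low relative to NKG2A.

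Klre1 encodes a lectin-like receptor that in mice pairs with KLRI1 in an inhibitory complex or with KLRI2 in an activating one. It was at 0.463, 0.645 and 0.304 FPKM in HCD 1 to HCD 3, against 0.0823, 0.404 and 0.262 FPKM in ND 1 to ND 3. ND 1 rests on 8 reads (95% Poisson interval 3.45 to 15.8). HCD 1 and HCD 2 lay above all ND libraries and HCD 3 between ND 2 and ND 3, with a log2 difference of 0.24 (95% interval -0.07 to 0.55, adjusted p = 0.865). It was 0.14 without ND 1 and 0.15 without HCD 2. Klrg1 encodes an inhibitory receptor for cadherins that marks mature NK cells and effector T cells. It was at 0.973, 1.59 and 0.879 FPKM in HCD 1 to HCD 3, against 0.155, 1.43 and 0.480 FPKM in ND 1 to ND 3. ND 2 lay above HCD 1 and HCD 3, and the ND libraries ran from 5 reads in ND 1 to 53 in ND 2. Klrg1 had the widest span of the 10 genes, 10.3-fold from lowest to highest library, where the median tested gene spanned 1.33-fold. Its log2 difference was 0.40 (SE 0.29, 95% interval -0.30 to 1.10, limma adjusted p = 0.795); leaving out ND 1 gave 0.17, leaving out ND 2 gave 0.70 and leaving out HCD 2 gave 0.26.

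The Ly49 receptors bind classical MHC class I molecules or, for Klra8, a viral look-alike. Klra7 encodes Ly49G, an inhibitory member. It was at 0.281, 0.933 and 0.365 FPKM in HCD 1 to HCD 3, against 0.125, 0.309 and 0.347 FPKM in ND 1 to ND 3. HCD 2, with 40 reads, stood alone; the other libraries had 6 to 17 reads, and HCD 1 lay below ND 2 and ND 3. The log2 difference of 0.26 (95% interval -0.16 to 0.68, adjusted p = 0.865) was 0.07 without HCD 2. Klra8 encodes Ly49H, an activating receptor known for its recognition of mouse cytomegalovirus. It was at 0.709, 1.04 and 0.365 FPKM in HCD 1 to HCD 3, against 0.297, 0.324 and 0.576 FPKM in ND 1 to ND 3. HCD 1 and HCD 2 lay above all ND libraries and HCD 3 below ND 3, with a log2 difference of 0.27 (95% interval -0.15 to 0.69, limma adjusted p = 0.794) that was 0.13 without HCD 2 and 0.42 without HCD 3.

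Klra4, which encodes the activating receptor Ly49D, had another order of libraries. It was at 0.947, 1.49 and 0.691 FPKM in HCD 1 to HCD 3, against 1.23, 0.582 and 2.14 FPKM in ND 1 to ND 3. ND 3 was highest and ND 2 lowest, and ND 1, the lowest library for each of the other 9 genes, was the third highest here. The reads behind it were 24, 38 and 18 in HCD 1 to HCD 3, against 35, 19 and 55 in ND 1 to ND 3, and the Poisson intervals of ND 2 (11.4 to 29.7) and ND 3 (41.4 to 71.6) did not overlap. Klra4 averaged 1.04 ± 0.410 FPKM in HCD and 1.32 ± 0.784 FPKM in ND (SD, n = 3 each). Its log2 difference was -0.14 (SE 0.27, 95% interval -0.81 to 0.52, limma adjusted p = 0.909). It was 0.10 without ND 3, -0.39 without ND 2, -0.30 without HCD 2 and -0.017 without HCD 3. Over the 6 libraries its log2 values had a Pearson correlation of 0.13 with the mean of the other 9 genes, against 0.66 to 0.97 for each other gene with its own remainder. These correlations describe 6 libraries that share their depth and tissue content, and they are given without a test.

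Klra4 made up 45.3%, 36.9% and 41.9% of the reads of the 3 Ly49 genes in HCD 1 to HCD 3, against 71.4%, 41.3% and 65.5% in ND 1 to ND 3. The 95% Wilson intervals were 32.7 to 58.6% in HCD 1, 28.2 to 46.5% in HCD 2 and 28.4 to 56.7% in HCD 3, against 57.6 to 82.2% in ND 1, 28.3 to 55.7% in ND 2 and 54.8 to 74.8% in ND 3. ND 1 and ND 3 had the high shares, while ND 2 lay among the HCD libraries. Intervals cover counting error only, and the share was singled out after its values were seen.

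**Figure D3:**
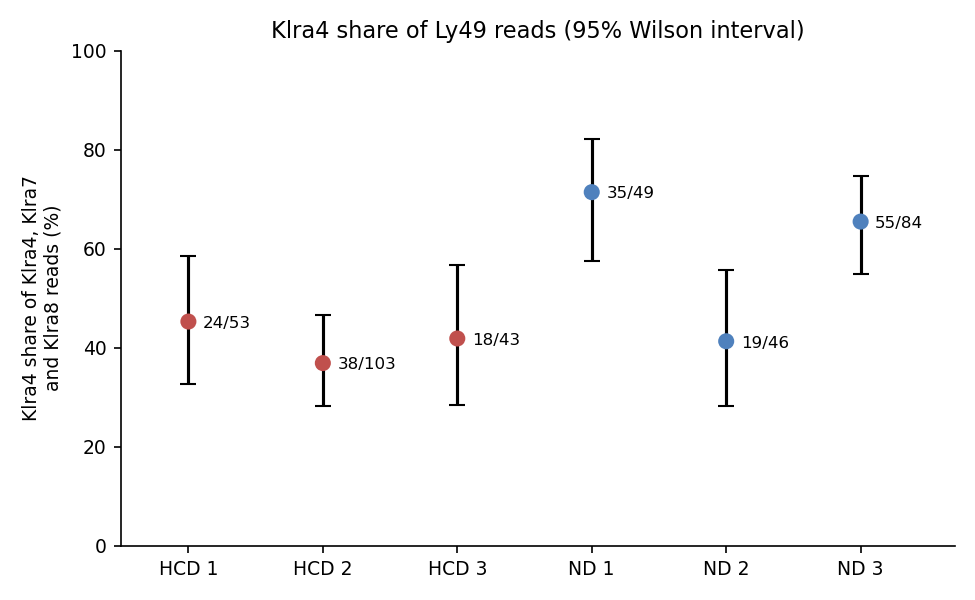
Share of Klra4 in the recovered reads of Klra4, Klra7 and Klra8 (y axis, percent) in each HCD and ND library, with 95% Wilson intervals; labels give Klra4 reads over Ly49 reads. ND 1 (71.4%) and ND 3 (65.5%) lie above the other libraries, which lie between 36.9% and 45.3%.

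The highest and the lowest library were otherwise shared across roles, while the order between them differed by gene. ND 2 was next to the highest for Klrg1, and HCD 1 next to the lowest for Ncr1. Without Klra4, pairs of receptors had correlations of 0.5 to 0.98. HCD 2 was the highest library for 9 of the 10 genes, where it was the highest for 24% of tested genes, and ND 1 was the lowest for 9 of 10, against 27%. The 10 genes together summed to 9.09, 15.1 and 6.86 FPKM in HCD 1 to HCD 3, against 4.25, 7.44 and 8.77 in ND 1 to ND 3. HCD 3 lay below ND 2 and ND 3. Without ND 1 the median log2 difference of the 10 genes was 0.17 and 8 of 10 lay higher, and without HCD 2 it was 0.10 with 9 of 10 higher, in place of 0.25.

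The T cell markers given above were likewise highest in HCD 2 and lowest in ND 1. The full cytotoxic list of 7 genes summed to 64.9, 96.2 and 65.3 FPKM in HCD 1 to HCD 3, against 64.4, 74.7 and 77.8 in ND 1 to ND 3, with HCD 1 and HCD 3 close to ND 1. Nkg7, Gzma, Gzmb, Prf1, Eomes and Il2rb, the cytotoxic list less Itga2, summed to 27.1, 59.2 and 27.4 FPKM in HCD 1 to HCD 3, against 10.1, 28.2 and 34.4 in ND 1 to ND 3. Itga2 was taken out after its values were seen, since it lay at 36.9 to 37.9 FPKM in HCD and 43.4 to 54.4 in ND, and went the other way (log2 difference -0.34, unadjusted p = 0.00733, limma adjusted p = 0.794). It was the only tested gene of any list with an unadjusted p under 0.05. Per 100 FPKM of T cell markers, the receptors came to 15.6, 19.1 and 20.9 FPKM in HCD 1 to HCD 3, against 34.0, 18.7 and 18.9 in ND 1 to ND 3. Relative to T cell content the receptors were thus highest in ND 1, and Klra4 alone gave 1.23 of the 4.25 FPKM there. Per 100 FPKM of the full cytotoxic list they were instead lowest in ND 1, at 6.60, against 9.97 (ND 2) to 15.7 (HCD 2) elsewhere. With Itga2 taken out they were again highest in ND 1, at 42.3, with HCD 1 next at 33.6. The standing of ND 1 therefore depended on the markers used as the base. Eomes, a transcription factor of NK cells that activated CD8 T cells also use, was at 0.426, 0.555 and 0.301 FPKM in HCD 1 to HCD 3, against 0.110, 0.326 and 0.475 in ND 1 to ND 3. Whether NK cells or T cells were the source of the receptor reads was not tested.

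**Figure D4:**
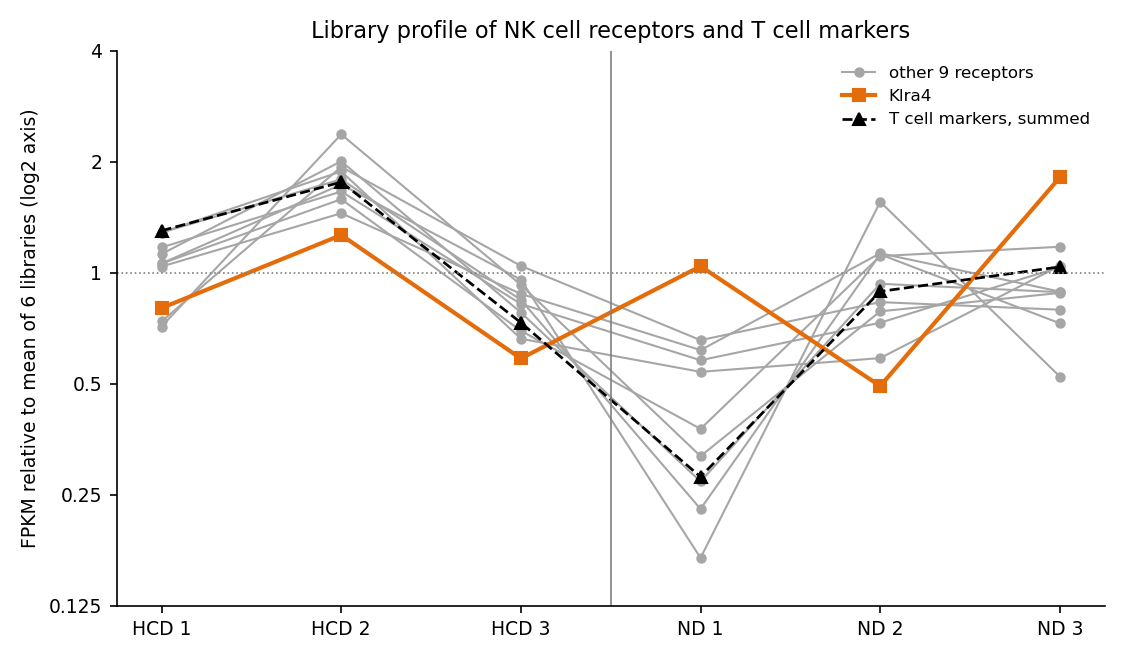
FPKM relative to each gene's mean over the 6 libraries (y axis, log2 axis) for Klra4 (orange squares), the other 9 receptors (grey) and the summed T cell markers (black triangles) in HCD 1 to HCD 3 and ND 1 to ND 3; lines only join the values of 1 gene. Grey lines and the T cell sum peak in HCD 2 and dip in ND 1, where Klra4 was at 1.23 FPKM, above its mean of 1.18.

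Other receptors of the same gene families were listed from textbook knowledge. Beside the counts of this and the following lists, 55.7% of all tested genes had a higher mean in HCD. Of 17 such genes 16 were in the table and 6 were tested; the mean in HCD was the higher one for 5 and the lower one for 1, with a median log2 difference of 0.25 against 0.02 over all tested genes, and limma called 0, with 0 at an unadjusted p under 0.05. The most abundant was Klra2, which encodes Ly49B and is known from myeloid cells, at 8.70, 18.7 and 11.0 FPKM in HCD 1 to HCD 3, against 8.82, 16.3 and 14.1 in ND 1 to ND 3 (log2 difference -0.06, limma adjusted p = 0.971). Klra17, which encodes Ly49Q of plasmacytoid dendritic cells and macrophages, was at 0.478, 3.69 and 0.668 FPKM in HCD 1 to HCD 3, against 0.292, 2.06 and 0.708 in ND 1 to ND 3 (log2 difference 0.26, limma adjusted p = 0.914). Klra2 thus exceeded every one of the 10 receptors, and neither gene separated the diets.

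Levels of the listed ligands ranged widely, from B2m and the classical class I heavy chains, far above every receptor, to Clec2i and Cdh1, with means of 0.575 and 0.508 FPKM, and Cdh4, listed at 0 in 5 of 6 libraries. Of 10 listed ligand genes 9 were tested, of which 7 lay higher in HCD and 2 lower, at a median log2 difference of 0.16; limma called 0, with 0 at an unadjusted p under 0.05. B2m, the light chain of MHC class I, was at 2623, 3211 and 2673 FPKM in HCD 1 to HCD 3, against 2143, 2639 and 2861 in ND 1 to ND 3 (log2 difference 0.16, 95% interval -0.18 to 0.50, limma adjusted p = 0.814). H2-D1, a classical class I heavy chain, was listed as a Ly49 ligand. Which Ly49 receptors bind its form in this strain was not examined. H2-D1 was at 585, 670 and 586 FPKM in HCD 1 to HCD 3, against 462, 591 and 582 in ND 1 to ND 3 (log2 difference 0.18, limma adjusted p = 0.794). Both class I chains had their highest value in HCD 2 and their lowest in ND 1. H2 genes are alike in sequence, so H2-D1 is uncertain where reads were shared.

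Adaptors and proximal signalling genes had a higher mean in HCD in 9 of 9 tested of 11 listed, with a median log2 difference of 0.35, and limma called 0, with 0 at an unadjusted p under 0.05. Tyrobp encodes DAP12, the adaptor of Ly49D and Ly49H, which macrophages also use; it was at 45.4, 80.5 and 44.2 FPKM in HCD 1 to HCD 3, against 25.8, 59.0 and 43.8 in ND 1 to ND 3 (limma adjusted p = 0.813). Fcer1g, the adaptor of NKp46 and NK1.1 and of Fc receptors on myeloid cells, was at 21.5, 44.9 and 22.5 FPKM in HCD 1 to HCD 3, against 13.9, 29.8 and 24.7 in ND 1 to ND 3 (limma adjusted p = 0.845). Both had HCD 2 highest and ND 1 lowest, as did the macrophage markers, the T cell markers and 9 of the 10 receptors. Among transcription factors and cytokine receptors of NK cells and type 1 innate lymphoid cells, 6 of 10 were tested, all 6 had a higher mean in HCD (median log2 difference 0.22), and limma called 0, with 0 at an unadjusted p under 0.05. Il2rb, the beta chain of the interleukin 2 and 15 receptors, differed by 0.50 and Nfil3, a factor needed for NK cell development, by 0.04 (limma adjusted p of 0.795 and 0.951).

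The genes whose profile over the 6 libraries was most like the mean of the 10 receptors, by Pearson correlation among 11998 genes, were Fasl, Klra3, Ppp1r16b, Fyn, Ubash3a and Ankrd44, at 0.992 to 0.994. Klra3 shares stretches of sequence with the receptor Klra8, and whether shared reads add to its likeness was not tested. Of the 11998 genes, 232 exceeded 0.95, so a high correlation over 6 libraries does not single out a gene. Fasl, the ligand of the Fas death receptor, was at 1.15, 2.34 and 0.775 FPKM in HCD 1 to HCD 3, against 0.317, 0.830 and 0.890 in ND 1 to ND 3.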

How the data were processed

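Per the file headers, the authors deposited FPKM, in a column for each sample. Tools listed, with no role stated, are HTSeq, TopHat2 2.0.9, CASAVA 1.8 and edgeR, on mm10, per the submitters' processing notes; annotation release, read length and strand use are not given in the sources used here. FPKM are not counts, so limma 3.58.1 (R 4.3.3) was fitted to log2(FPKM + 1) with diet as the only term and a variance trend, over the 13417 genes averaging 0.5 FPKM or more, with two-sided tests and Benjamini-Hochberg adjustment; adjusted p-values in the text are from it, or for receptors below that mean from the fit without the filter. Differences are HCD minus ND. Whole reads within 0.02 of a read, up to 20000, were recovered for 98.7% of tested genes from the FPKM steps. Gene lengths were searched around those of GENCODE M21 and could differ from them. The length used was 2781 bases against 1281 for Klrd1, 4872 against 2961 for Klrb1c and 2098 against 1265 for Klra7. It equalled that of GENCODE M21 for Klrg1, Klra4 and Klra8. Genes with at least 50 reads entered limma-voom. The fit and the recovery were tested on simulated data. At 2 kb, 1 FPKM is 40.7 to 52.5 reads. All 6 samples and columns were used. The receptors, the gene lists and the tests were chosen with earlier results of these data known. Named genes are the 10 receptors, the 2 most abundant tested genes of each list (none was called) and the 6 most alike genes; Eomes, Itga2 and other marker genes are given as parts of sums. Alternatives were no filter, a pseudocount of 0.1, median-ratio scaling, the replicate block, leaving out each library, and limma-voom.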

Additional observations from a re-analysis of the deposited data

How the results depend on the processing

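No receptor was called in any setting run: no filter, a pseudocount of 0.1, median-ratio scaling, limma-voom, the replicate block or each library left out. Adjusted p-values of the receptors over these ran from 0.543 to 1. In 103 repeats a receptor's difference had the direction reported and in 2 the opposite one. Some of the 103 could not differ: the replicate block leaves every difference unchanged, as does dropping the filter for receptors that passed it. Klrc2 without HCD 2, at 0.0001, also counts among the 103. The 2 opposite ones were Klrc2 at -0.012 without ND 1 and Klra4 at 0.10 without ND 3. With another library left out, Klrc2 reached up to 0.13 and Klra4 down to -0.39. Counts of genes called were 0 higher and 0 lower in each of these settings, except that leaving out a library gave 0 to 1 lower: S100a9 without ND 2 (log2 difference -1.60, limma adjusted p = 0.0328). Deviations of samples with the same replicate number correlated at -0.19, 0.14 and 0.06 for numbers 1, 2 and 3. Those of samples with different numbers ran from -0.52 (HCD 3 with ND 2) to 0.53 (HCD 3 with ND 1). Deviations were taken from the mean of each group of 3, which ties these correlations together. They therefore cannot decide whether the numbers pair the libraries. The replicate block called 0 genes. Libraries of 20351637 to 26228073 fragments left 5 to 231 reads behind each receptor value; the intervals given also hold the spread between 3 libraries a group, and the share of counting error in them was not tested.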

Other observations

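Genes whose log2 values over the 6 libraries were most like those of Klra4 were looked up after its values were seen. Among 11998 genes they were Ctnnb1, Ttbk2, Fam214b, Col12a1, Edem3 and Timm10b, with Pearson correlations of 0.967 to 0.986 and 12 genes above 0.95. Ctnnb1, which encodes beta-catenin, was at 58.9, 67.3 and 57.1 FPKM in HCD 1 to HCD 3, against 65.4, 54.3 and 72.5 in ND 1 to ND 3. Col12a1, a collagen chain of stroma, was at 4.98, 8.70 and 4.43 FPKM in HCD 1 to HCD 3, against 6.52, 3.31 and 9.70 in ND 1 to ND 3. None of these 6 is a lymphocyte marker of the lists used here. Those lists hold few of the 11998 genes, so this says nothing of the source of Klra4 reads, which was not tested. Mast cell and basophil markers summed to 37.2, 113 and 47.1 FPKM in HCD 1 to HCD 3, against 13.3, 53.8 and 45.9 in ND 1 to ND 3, with HCD 2 highest and ND 1 lowest as for most receptors. Markers of type 1 innate lymphoid cells summed to 11.5, 19.6 and 9.74 FPKM in HCD 1 to HCD 3, against 6.11, 13.0 and 11.0 in ND 1 to ND 3. B cell markers summed to 5.15, 3.52 and 0.791 FPKM in HCD 1 to HCD 3, against 0.572, 1.49 and 1.10 in ND 1 to ND 3.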
